A study of Mus musculus with 5 samples.

Results

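Claudins are membrane proteins that form the strands of tight junctions, the seals between neighbouring epithelial or endothelial cells. Which claudins a cell makes sets how tight its junctions are and which ions pass between cells, and in the alveolus this seal keeps fluid out of the air space. The genes described here are 10 members of this family (Cldn1, Cldn3, Cldn4, Cldn5, Cldn6, Cldn7, Cldn9, Cldn15, Cldn18 and Cldn23), out of 21627 protein-coding genes of the RefSeq annotation. They were taken by name, with earlier results of these data known. The data are the NKX2-1 peaks whose summit lay inside one of these genes or within 20 kb of it. All 10 symbols were found in the annotation (GRCm38.p6, the assembly of mm10).

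NKX2-1 is a homeodomain transcription factor of lung epithelium. Its binding was mapped by ChIP-seq in lung tissue of wildtype mice at P10, read here from the sample titles as postnatal day 10, with 4 antibodies (Abcam133737, Millipore07-601, Abcam76013 and Abcam133638) that have 1 library each, and 1 input library served as control for all of them. The chromatin was pooled from tubes of nuclei, per the labels' protocol, and the number of animals is not given in the labels. The libraries may therefore share 1 chromatin pool, no value below has a replicate error, and no test between antibodies was possible. The libraries held 43031331 to 46547989 tags after removal of duplicates and gave 40877 to 57891 peaks. The tissue mixes all cells of the lung, so binding in few cells and weak binding in many cannot be told apart.

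Overlapping peaks were merged into regions, and a region with a peak of all 4 antibodies is called a 4-antibody region. Of the 10 claudin genes, 8 had such a region (80%, exact Clopper-Pearson 95% interval 44.4 to 97.5), against 64.8% of all protein-coding genes under the same rule. The interval spans the value of all genes. The same 8 genes had a peak of each antibody taken alone, where the share of all genes was 69.2% with Abcam133737, 74% with Millipore07-601, 69% with Abcam76013 and 74.7% with Abcam133638. Cldn1 and Cldn5 had no peak of any antibody, while 76.7% of all genes had at least 1.

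Counted once where windows of neighbouring genes overlap, the claudin genes held 61 regions. Of these, 38 (62.3%) were 4-antibody regions, against 31606 of 68919 regions (45.9%) in the genome. The genome set has no limit of distance from genes, and the share among regions within 20 kb of any gene was not computed. Another 4 had peaks of 3 antibodies, 11 of 2 and 8 of 1. In the genome, 13.5% of regions had peaks of 3 antibodies, 15.4% of 2 and 25.2% of 1. Of the 38 regions, 7 had their summit inside a claudin gene, 9 inside another protein-coding gene and 22 outside genes. Only 22 of the 38 lay nearer to a claudin gene of the list than to any other protein-coding gene, and 20 lay over 10 kb from the claudin gene.

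**Figure D1:**
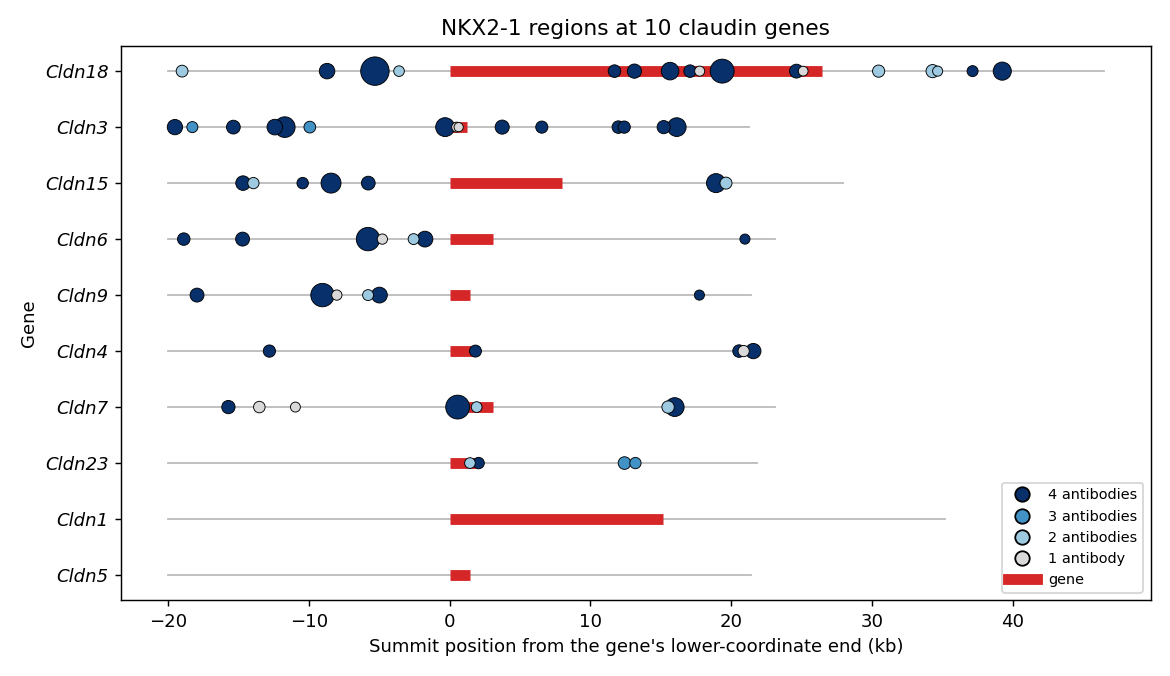
Regions inside or within 20 kb of each claudin gene, by the position of the highest summit in kb from the gene's lower-coordinate end. Circles are regions, their area grows with the mean fold enrichment and their shade gives the number of antibodies. Red bars are genes and grey lines the windows. Cldn18 has 10 and Cldn3 has 11 4-antibody regions, and Cldn1 and Cldn5 have none.

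In 4 of the 10 RefSeq promoter windows listed for these genes, a 4-antibody region overlapped the window, against 29.4% of 21044 windows of all protein-coding genes. A window runs from 250 bases before to 50 bases after an annotated transcription start, and Cldn9 and Cldn23 have no entry. The 4 overlapped windows belonged to Cldn3, Cldn4, Cldn7 and Cldn18. A region joins the peaks of all 4 antibodies, so the peak of each antibody need not reach the window. For this overlap the sequences of the 4 windows (RefSeq, GRCm38.p6) are shown, 5′ to 3′ in the direction of transcription. They were searched on both strands for CTCAAG, the core of the classical NKX2-1 site. The other motifs searched were AAGTG, a core bound by the NK2 class of homeodomain factors, and GGAATG, a site of TEAD factors. Capitals mark the matches, which read CACTT where AAGTG lies on the other strand. Each window holds at most 1 match.
Cldn3, chr5:134985964-134986263, + strand: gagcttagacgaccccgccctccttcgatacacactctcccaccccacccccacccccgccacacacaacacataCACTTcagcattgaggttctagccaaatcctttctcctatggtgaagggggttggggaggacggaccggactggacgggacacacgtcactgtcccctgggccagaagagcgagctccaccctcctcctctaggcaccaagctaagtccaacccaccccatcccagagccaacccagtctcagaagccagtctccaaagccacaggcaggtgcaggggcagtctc
Cldn4, chr5:134946885-134947184, - strand: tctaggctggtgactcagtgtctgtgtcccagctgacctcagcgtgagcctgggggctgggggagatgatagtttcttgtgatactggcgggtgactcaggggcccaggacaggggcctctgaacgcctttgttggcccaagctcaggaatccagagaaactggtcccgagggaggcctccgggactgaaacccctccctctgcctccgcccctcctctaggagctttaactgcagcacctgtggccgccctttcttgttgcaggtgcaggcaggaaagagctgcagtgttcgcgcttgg
Cldn7, chr11:69965171-69965470, + strand: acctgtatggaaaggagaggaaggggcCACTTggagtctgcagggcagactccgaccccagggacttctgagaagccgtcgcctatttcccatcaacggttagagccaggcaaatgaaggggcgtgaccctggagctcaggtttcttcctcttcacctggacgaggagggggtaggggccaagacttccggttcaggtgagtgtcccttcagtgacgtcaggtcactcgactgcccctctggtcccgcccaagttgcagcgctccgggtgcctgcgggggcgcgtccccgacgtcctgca
Cldn18, chr9:99710014-99710313, - strand: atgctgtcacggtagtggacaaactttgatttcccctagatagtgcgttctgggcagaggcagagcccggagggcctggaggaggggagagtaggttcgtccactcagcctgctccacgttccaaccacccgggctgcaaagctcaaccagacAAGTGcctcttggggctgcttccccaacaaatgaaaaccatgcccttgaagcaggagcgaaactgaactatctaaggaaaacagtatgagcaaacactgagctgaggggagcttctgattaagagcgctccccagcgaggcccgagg

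AAGTG occurred once in the windows of Cldn3, Cldn7 and Cldn18 and not in that of Cldn4. This short motif is common: 45.2% of all promoter windows hold it, and 45.1% of the 6196 windows that a 4-antibody region overlaps. Neither CTCAAG, held by 15% of all windows and 16.6% of the overlapped ones, nor GGAATG, held by 13.5% and 11.3%, occurred in these 4 windows. In the Cldn18 window the match began 97 bases before the start, and the summits of the 4 antibodies lay 61 to 100 bases before it. At Cldn7 the match began 223 bases before the start with summits at 29 to 68 bases before it, and at Cldn3 the match began 175 bases before and the summits lay 279 to 362 bases before it. A match is a stretch of letters and not a mapped site, and the sequence under the other regions was not used here.

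Cldn18 encodes the claudin of alveolar epithelium, made by both alveolar cell types, and mice without it have a leakier alveolar barrier. Its strongest region lay 5.30 kb beyond the 3′ end of the gene (chr9:99684746-99686114). The fold enrichment there was 25.8 with Abcam133737, 35.1 with Millipore07-601, 23.5 with Abcam76013 and 25.8 with Abcam133638. Fold enrichment is the authors' ratio of the tag pileup at the summit to the local background, with 1 added to both, which makes it lower than the plain ratio. The pileups were 128 tags (exact Poisson 95% interval 107 to 152), 172 (147 to 199.7), 118 (97.7 to 141) and 122 (101.3 to 146) in the same order. These intervals cover counting error only. That of Millipore07-601 overlaps the interval of Abcam133737 and lies above those of Abcam76013 and Abcam133638, without adjustment for the differing library sizes. By its mean fold of 27.6 the region stood at percentile 98.7 of all 4-antibody regions. Of the genes with a 4-antibody region, 3.66% had a best region as strong.

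Another 9 regions of all 4 antibodies lay around Cldn18, with mean folds of 4.11 to 19.5. The strongest of these covered the more 3′ of 2 annotated starts of the gene (chr9:99709307-99710672), with folds of 15.0 with Abcam133737, 22.2 with Millipore07-601, 16.6 with Abcam76013 and 24.1 with Abcam133638. No 4-antibody region overlapped the window of the other start (chr9:99717218-99717517). The gene uses alternative first exons for a lung form and a stomach form, and the peaks do not show which transcript was made. Inside the gene lay 6 of the 10 regions, while 2 lay beyond its 3′ end and 2 before its 5′ end. Windows grow with the gene. Among 3037 genes whose window was within 10% of that of Cldn18 in width, 21 (0.691%) had as many such regions, Cldn18 itself included.

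Cldn3 and Cldn4 are neighbours on chromosome 5 and encode barrier claudins of many epithelia, both found in the alveolar lining. Cldn3 carried 11 4-antibody regions in a window of 41.3 kb, the highest number in the list, and 1.29% of all protein-coding genes had as many. Among 5107 genes with a window of a width within 10% of this one, 4 (0.0783%) did, Cldn3 itself included. Matching by width was done only for Cldn3 and Cldn18, which had the most 4-antibody regions in the list. A low share was therefore likely beforehand, and none was computed for the other members. The strongest lay 11.7 kb before the gene (chr5:134974173-134974757), with folds of 10.9 with Abcam133737, 16.7 with Millipore07-601, 13.0 with Abcam76013 and 17.2 with Abcam133638. A further region reached from the promoter into the gene (chr5:134985513-134986385). Its folds were 13.4 with Abcam133737, 14.0 with Millipore07-601, 9.70 with Abcam76013 and 11.5 with Abcam133638. The 3 regions farthest downstream, 11.1 to 14.9 kb from the gene, were nearer to Abhd11.

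Cldn4 had 4 such regions, of which the one at its promoter was weak (chr5:134946871-134947169). Its folds were 4.12 with Abcam133737, 5.50 with Millipore07-601, 3.45 with Abcam76013 and 6.47 with Abcam133638, and its mean of 4.88 stood at percentile 13.5. The strongest, at a mean fold of 7.97, lay 19.8 kb before Cldn4 and 19.5 kb before Cldn3 and was counted for both (chr5:134966299-134966929). There Abcam76013 gave a pileup of 21 tags (13.0 to 32.1), against 40 (28.6 to 54.5) with Millipore07-601, 43 (31.1 to 57.9) with Abcam133638 and 44 (32.0 to 59.1) with Abcam133737. The interval of Abcam76013 overlapped that of Millipore07-601 and, by a margin of under 1 tag, those of Abcam133638 and Abcam133737.

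Cldn7, a claudin of many epithelia that also sits along the basolateral membrane, had 3 regions of all 4 antibodies. The strongest lay inside the gene, over the more 3′ of its annotated starts (chr11:69965200-69965688), and its summits with all 4 antibodies fell within 39 bp of each other. Its folds were 16.02 with Abcam133737, 21.6 with Millipore07-601, 16.2 with Abcam76013 and 23.4 with Abcam133638, at percentile 94.8 of all 4-antibody regions. The others lay 12.9 kb downstream, nearest to Elp5, at a mean fold of 12.0, and 15.7 kb upstream, nearer to Slc2a4, at 6.01.

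Cldn6 and Cldn9 lie side by side on chromosome 17 and share their regions. Cldn6 is known as a claudin of embryonic epithelia, and Cldn9 for its role in the inner ear. All 4 of the 4-antibody regions of Cldn9 were also among the 5 of Cldn6, and none of the 5 was nearest to either gene. The strongest (chr17:23673318-23674108) lay nearest to Thoc6, 5.79 kb from Cldn6 and 9.03 kb from Cldn9. Folds there were 16.4 with Abcam133737, 22.2 with Millipore07-601, 16.04 with Abcam76013 and 19.8 with Abcam133638. A region of mean fold 8.50 stood 1.75 kb from Cldn6, nearer to Tnfrsf12a.

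Cldn15, which forms a paracellular cation pore in the intestine, had 5 regions of all 4 antibodies, and none had its summit in the gene or lay nearest to it. The strongest lay 8.42 kb upstream, nearest to Fis1 (chr5:136959106-136959631), with folds of 11.7 with Abcam133737, 17.8 with Millipore07-601, 10.4 with Abcam76013 and 14.4 with Abcam133638. Another of mean fold 12.3 lay 10.95 kb downstream, where Znhit1 was the nearest gene. Cldn23 had a single weak 4-antibody region 0.213 kb from the gene (chr8:35826340-35826909), with folds of 4.10 with Abcam133737, 3.41 with Millipore07-601, 4.67 with Abcam76013 and 5.57 with Abcam133638. Of the genes with a 4-antibody region, 97.6% had a best region at least this strong. The summits in the Cldn23 region spread over 248 bp. When peaks were merged by summits within 100 bp instead, Cldn23 had no 4-antibody region.

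Cldn5, the main claudin of endothelium, and Cldn1, a claudin of the epidermal barrier, were the genes without a peak in the window. For Cldn1 the nearest peak of any antibody was 73.2 kb away, in a 4-antibody region nearer to Cldn16 (chr16:26444905-26445174, mean fold 5.33). For Cldn5 the nearest one lay just past the limit, at 21.8 kb (chr16:18754895-18755183). Its folds were 6.89 with Abcam133737, 9.33 with Millipore07-601, 4.48 with Abcam76013 and 8.07 with Abcam133638, and Cldn5 was the protein-coding gene nearest to it. The limit of 20 kb also left out a region of mean fold 19.7 at 20.5 kb from Cldn3 (chr5:135007536-135008195), which exceeded every region inside the window of that gene, and kept the one at 19.5 kb.

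**Figure D2:**
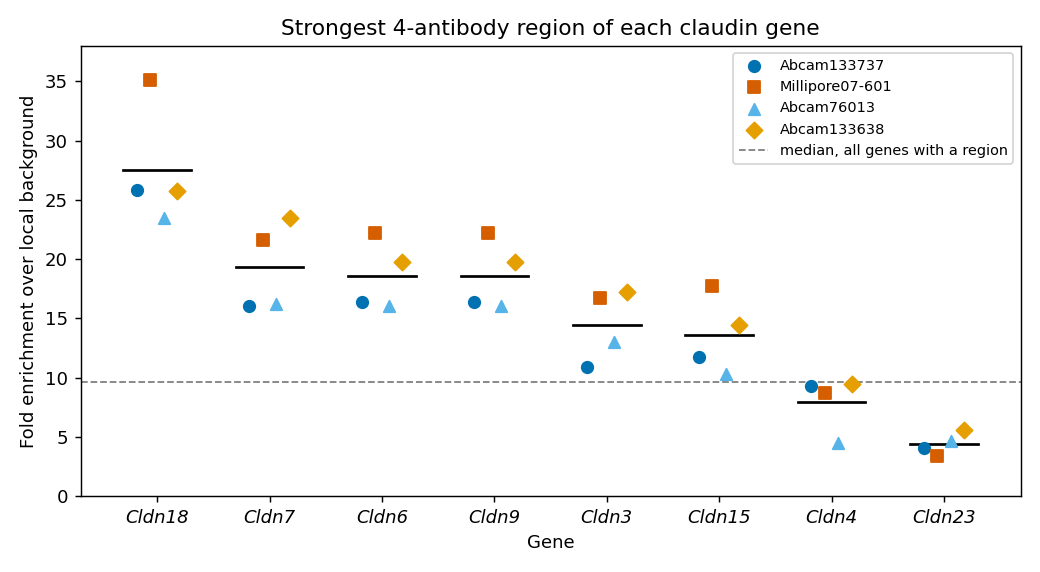
Fold enrichment of the strongest 4-antibody region of each of the 8 claudin genes with one, as 1 point per antibody library. Black lines are the mean of the 4 points and the dashed line is the median of the same mean over all protein-coding genes with such a region, 9.65. Cldn6 and Cldn9 show the same region, Cldn18 stands highest with each antibody, and Cldn4 and Cldn23 lie below the dashed line.

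Ordered by their best region, the genes ran Cldn18 (mean fold 27.6), Cldn7 (19.3), Cldn6 with Cldn9 (18.6), Cldn3 (14.5), Cldn15 (13.6), Cldn4 (7.97) and Cldn23 (4.44). The values of the 4 antibodies overlapped between Cldn7 and Cldn6 and between Cldn3 and Cldn15, and the order within these pairs changed with the antibody. The ranges of Cldn7 and Cldn6 also overlapped those of Cldn3 and Cldn15, though Cldn7 and Cldn6 were the higher in every library. Cldn18 was first in every library. Cldn4 and Cldn23 were last, with overlapping ranges and in an order that was reversed with Abcam76013. The median best mean fold of the 8 genes was 16.5, against 9.65 over all genes with a 4-antibody region, with the region of Cldn6 and Cldn9 entering once for each.

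Of the 10 claudin genes, 7 had more 4-antibody regions than the median gene, Cldn23 had as many and Cldn1 and Cldn5 had fewer. The median number was 4, against 1 over all protein-coding genes, 0 over 18 other claudin genes and 4.5 over 24 other tight junction genes. These numbers were not adjusted for the width of the windows. For the 10 genes the median density was 9.61 regions per 100 kb of window, against 1.80 over all protein-coding genes. Taken one by one, the 38 regions had a median mean fold of 6.67 (quartiles 5.34 and 11.7), against 7.14 (5.51 and 10.3) for all 4-antibody regions. Above the genome median lay 17 of them, and 4 (10.5%) reached the strongest 10% of the genome. Members and both other lists were chosen by name with earlier results of these data known. Windows of members partly overlap and regions of 1 gene are not independent, so these values describe the list and were not tested.

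**Figure D3:**
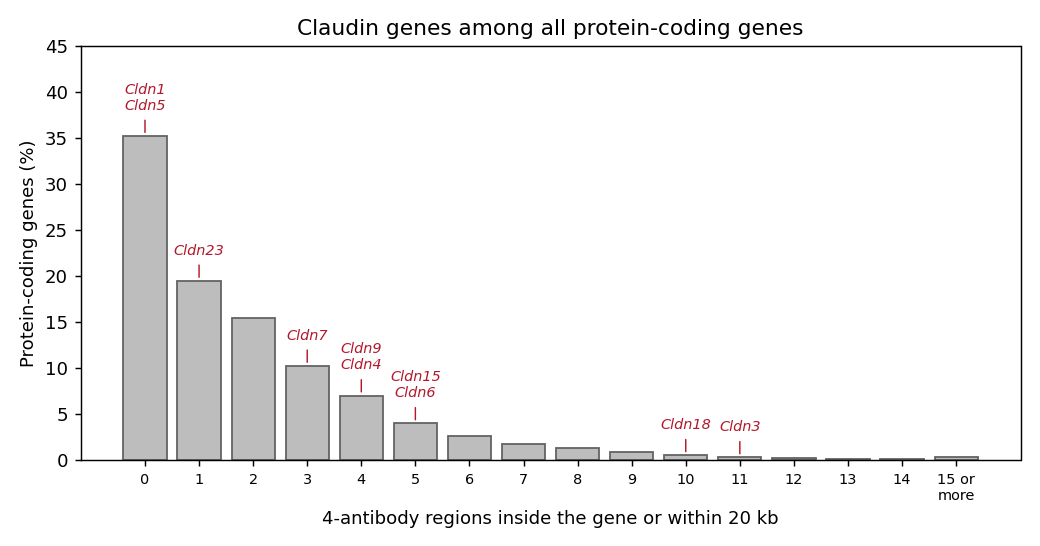
Share of all protein-coding genes (vertical axis, %) by the number of 4-antibody regions inside the gene or within 20 kb (horizontal axis), with the claudin genes named above their bar. Cldn18 with 10 and Cldn3 with 11 regions stand in the right tail, and Cldn1 and Cldn5 share the bar at 0 with 35.2% of genes.

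**Figure D4:**
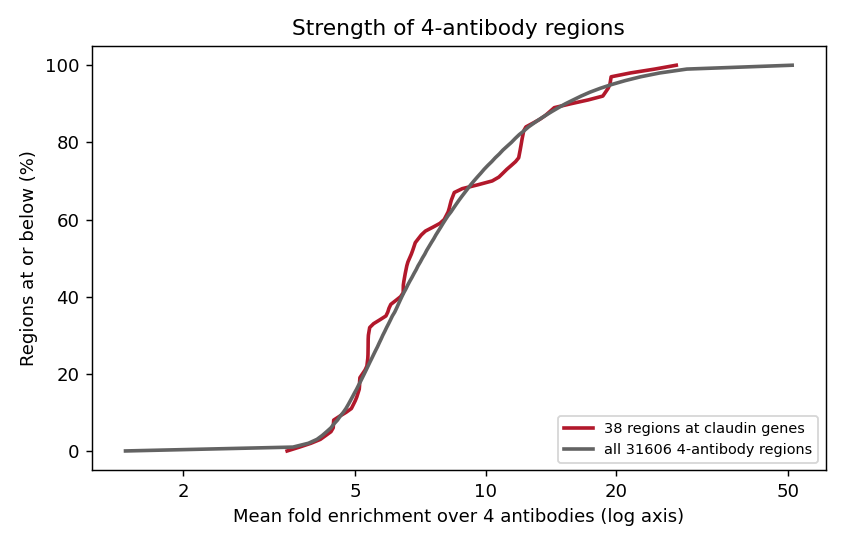
Cumulative share of regions (vertical axis, %) by mean fold enrichment over the 4 antibodies (log axis). The red line is the 38 regions at claudin genes and the grey line all 31606 4-antibody regions. The red line has its median at 6.67 and the grey line at 7.14.

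Across the 38 regions, as in the genome, the median pileup was higher with Millipore07-601 and Abcam133638 than with Abcam133737 and Abcam76013. Divided by the number of filtered tags, the median pileup was 0.655 tags per 1000000 with Abcam133737, 0.953 with Millipore07-601, 0.635 with Abcam76013 and 0.882 with Abcam133638. Over all 4-antibody regions the values were 0.666, 0.976, 0.667 and 0.916 in the same order. Millipore07-601 was highest at 24 of the 38 regions (63.2%, against 65.5% in the genome) and Abcam133638 at the other 14. Abcam133737 was lowest at 18 and Abcam76013 at 20. Counts of 18 and 20 are too close to give an order. In the genome Abcam133737 was lowest at 16911 of the 31606 regions and Abcam76013 at 13152. On this scale the ratio of the highest to the lowest pileup had a median of 1.60 at the claudin genes and 1.68 in the genome. This ratio was largest, at 2.74, in a region 18.8 kb before Cldn4 (chr5:134965566-134965880), where pileups of 38 tags (26.9 to 52.2) with Millipore07-601 and 15 tags (8.40 to 24.7) with Abcam76013 were the extremes. The region is named for this ratio, so these counts and their intervals are a description.

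Summits of the 4 antibodies lay within 100 bp of each other at 31 of the 38 regions (81.6%), against 85.6% in the genome. The widest spread was 661 bp, in a Cldn15 region with several peaks per antibody (chr5:136961960-136962896). The 23 regions that missed an antibody mostly had peaks of the libraries with the longer lists. Abcam133638 gave a peak in 18 of them, Millipore07-601 in 15, Abcam133737 in 5 and Abcam76013 in 4, while in the genome these shares were 67.3%, 67.3%, 21.1% and 22.5%. Around Cldn18, 5 regions had peaks of only 2 antibodies and 2 of only 1, and their mean folds over the antibodies with a peak ran up to 5.90. For 52.6% of the 152 strongest peaks in the 38 regions, the local background lay within 0.05 tags of the genome-wide value, against 60.0% to 63.3% of all peaks in the 4 libraries, so that within a library their folds differ only with the pileup.

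The rest of the family and other tight junction genes were set beside these members. Of 18 other claudin genes, 7 had a 4-antibody region within 20 kb (38.9%, interval 17.3 to 64.3), against 64.8% of all genes. The upper limit of this interval lies just below the share of all genes. The interval treats the genes as independent, but the listed Cldn34 genes all lie on chromosome X and all lack such a region. The list was chosen by name with earlier results of these data known, and the value is a description. Its interval overlaps that of the 10 claudin genes, and the difference between the lists was not tested. The strongest regions were those of Cldn10 inside the gene (mean fold 14.3), Cldn14 (9.12) and Cldn12 (6.67). Cldn2, Cldn11, Cldn17, Cldn20, Cldn22, Cldn24, Cldn34a, Cldn34b1, Cldn34b2, Cldn34c1 and Cldn34d had none, and 8 of these 11 had no peak at all. The only 4-antibody region of Cldn13 was one that it shares with Cldn4, nearest to Mettl27.

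Of 24 other tight junction genes, which encode scaffold, adhesion and polarity proteins, 22 had a 4-antibody region (91.7%, 73.0 to 99.0), against 64.8% of all genes. The interval lies above the share of all genes. This list, too, was chosen by name with earlier results of these data known, and the value is a description. Windows grow with the gene, and neither this share nor the number of regions was adjusted for window width. The strongest regions lay inside Prkci, a polarity kinase gene (mean fold 29.9), Tjp1, the gene of the scaffold protein ZO-1 (26.0), and Pard3, another polarity gene (23.9). The median best mean fold was 14.4, against 16.5 for the claudin members. Ocln, the occludin gene, had 7 such regions with a best mean fold of 18.96, while Marveld2 and Jam3 had none.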

How the data were processed

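The deposited files are peak tables, 1 per antibody library. MACS 2.1.2 made each of them, per the file headers, from 1 antibody library set against the common input, keeping 1 tag per position and peaks under a q-value of 0.05. The submitters' processing notes name build mm10 and the tools deepTools, MACS2, SAMtools, Bowtie, Trimmomatic and FastQC, and further versions are not given in the sources used here. For every peak the authors deposited the pileup signal at its summit, the fold enrichment (the ratio of that pileup to the local background, with 1 added to both, as the values show), and the p-value and q-value as −log10. The input, at 10653749 filtered tags, was scaled up by 4.04 to 4.37, so a low local background rests on few reads.

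Peaks with a summit inside a gene or within 20 kb were merged where they shared at least 1 bp and counted by antibody. The mean fold is the mean over antibodies of the highest peak of each. Genes were protein-coding genes of chromosomes 1 to 19 and X in RefSeq. Python 3.11.15, pandas 2.3.3 and scipy 1.17.1 were used, and merging was tested on simulated data. All 10 members, their best regions and, in each further list, the 3 genes with the strongest region and those without a region are named. Of the 19 other claudins listed, Cldn25 had no unambiguous match. Members, lists and motifs were chosen with earlier results of these data known. Other genes were named after their values were seen. The input has no peak table and was not analysed here.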

Additional observations from a re-analysis of the deposited data

How the results depend on the processing

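Each count was recomputed under 13 alternatives. The number of claudin genes with a 4-antibody region was 8 and lay between 5 and 9, and moved by over 1.5 times when a region counted for a gene only if that gene was the nearest (5 genes, without Cldn6, Cldn9 and Cldn15, against 50% of all genes). Windows of 50 kb added Cldn5 (9 genes, against 74.6% of all genes). A fold of at least 5 left 6 genes, without Cldn4 and Cldn23, against 50.5% of all genes. The 10000 strongest peaks of each list left the same 6 genes, against 27.4% of all genes. Merging by summits within 100 bp left 7 genes, without Cldn23, against 63% of all genes. The 38 4-antibody regions became 18 with a window of 10 kb, 17 with a fold of at least 5, 11 with the strongest peaks and 22 with the nearest gene. The 61 regions of any antibody became 31 with 10 kb, 99 with 50 kb, 15 with the strongest peaks and 37 with the nearest gene. Each of these settings keeps fewer or more peaks by construction. The median best mean fold (16.5) ran from 14.5 to 18.6, and the median ratio of highest to lowest pileup (1.60) from 1.48 to 1.60 over its 6 alternatives. The same median over all genes with such a region also moved. With the nearest gene it was 8.69, against 14.5 for the members. A fold of at least 5 gave 11.4 against 18.6, and the strongest peaks 15.4 against 18.6, both without Cldn4 and Cldn23. Leaving out any antibody kept 8 genes and 39 or 40 regions with peaks of all the others. A 4-antibody region has peaks of the remaining antibodies too, and Cldn1 and Cldn5 had no peak within 20 kb. These numbers were thus largely fixed in advance. Most alternatives of the pileup ratio also left out an antibody, which cannot raise the ratio at a given region. With 1 library per antibody and 15 to 30 tags at the weak summits, small differences in pileup were not detectable.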
